A study of Homo sapiens with 12 samples.

Results

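The genes described here are 10 genes of the integrated stress response, chosen by gene symbol: ATF4, ATF3, DDIT3 (which encodes CHOP), DDIT4, ASNS, CHAC1, SESN2, PPP1R15A, PSAT1 and PHGDH. They are 10 of the 20046 genes annotated on the arrays and are read by 16 of the 47322 probes. Of these, 12 probes of 9 genes passed the filter for detection, which asked for a detection p-value under 0.01 on at least 2 of the 12 arrays. CHAC1 had no probe that passed.

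RNA came from 3 human multiple myeloma cell lines, each grown with PRIMA-1Met or with its solvent DMSO for 8 h, in 6 groups of 2 Illumina HumanHT-12 arrays. MM.1S, labelled p53 wild type, received 20 µM PRIMA-1Met, while U266, labelled p53 mutant, and 8226R5, labelled p53 null, received 40 µM. PRIMA-1Met (APR-246) turns in cells into a product that binds thiols and has been studied as a reactivator of mutant p53. Dose and p53 status move with the line, so their parts cannot be told apart, and the labels do not say that the duplicate wells were independent cultures, so p-values measure the spread between these arrays only.

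The integrated stress response is switched on when kinases that sense amino acid shortage, unfolded protein, double-stranded RNA or haem shortage phosphorylate the translation factor eIF2. Most protein synthesis then slows, while the ATF4 mRNA is translated better. ATF4 protein, with partners of the C/EBP family, raises transcription of genes for amino acid synthesis and transport, of the factors ATF3 and CHOP, and of PPP1R15A, whose product brings a phosphatase back to eIF2. Plasma cells and myeloma cells secrete much immunoglobulin and are known for a strong dependence on the handling of unfolded protein. The arrays measure mRNA, so they show neither eIF2 phosphorylation nor ATF4 protein.

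The values are log2 intensities that the authors quantile normalized, so every array has a median of 5.92, and a value of 6.39 to 7.06, depending on the array, was the lowest of any detected probe. Between 11816 and 16025 probes were detected per array, with the lowest numbers (11816 and 12093) on the treated MM.1S arrays. The 90th percentile of the signal before normalization was 835.9 and 788.9 on the MM.1S controls but 212.3 and 215.1 on the treated MM.1S arrays. It fell less in U266, from 904.3 and 906.3 to 549.2 and 521.5, and was higher after treatment in 8226R5. The standard deviation of the difference between duplicate arrays was 0.377 in treated MM.1S and 0.175 to 0.23 in the other groups. Of 10 plasma cell markers, 10 were detected on both arrays of each MM.1S group and 9 and 8 in the U266 groups. In 8226R5 only 4 were: SDC1, PRDM1, XBP1 and MZB1. MZB1 was higher in the 8226R5 controls (9.22) than in the U266 controls (7.65), whereas SDC1, PRDM1 and XBP1 were lower than in both other lines. CD38, IRF4, JCHAIN, POU2AF1, SLAMF7 and TNFRSF17 were at background in 8226R5. The summed linear values of the list were 2468 to 2865 there against 24070 to 94540 in the other lines. EPCAM (13.47) and CD3D (12.10), markers of epithelium and of T cells, were detected in the 8226R5 controls and in no MM.1S or U266 group. Of 11 measured markers of other cell types, 8 were detected on both arrays of the 8226R5 controls. In the MM.1S and in the U266 controls 3 were. The absent plasma cell markers, EPCAM and CD3D go against the label of 8226R5 as a myeloma line. The 4 detected markers do not, but SDC1 (6.85 in the 8226R5 controls) lay near the detection limit. The name therefore stands for the arrays labelled 8226R5 throughout.

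Some of the cell type markers also moved with treatment. Of the 10 plasma cell markers 9 fell in MM.1S (median change -1.18), 6 in U266 (-0.857) and 2 in 8226R5 (-0.143), and their summed linear values were 87150 and 94540 in the MM.1S controls against 41340 and 42070 after treatment. Of 11 measured markers of other cell types, 3 rose in MM.1S, 4 in U266 and 2 in 8226R5, and their summed linear values were 1274 to 1339 in the MM.1S controls and 4693 to 4784 after treatment. Over all probes 25.9% rose and 46% fell in MM.1S, 12% and 14% in U266, and 5.02% and 4.08% in 8226R5. The 3 rises of 11 in MM.1S are thus near the share over all probes. ALB, the serum albumin gene of liver, went from 6.68 to 11.47 in MM.1S and from 6.56 to 9.08 in U266. The part of these shifts in the results below was not tested. In bulk RNA, fewer cells of a type and less RNA per cell cannot be told apart.

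ATF4 is known to act through a composite sequence called the C/EBP-ATF response element, with the letters TGATGNAAN. To show which of the 10 genes carry those letters near their start, the 250 bases before each start site in RefSeq (GRCh38.p14) were searched on both strands. All 10 genes matched, with 14 promoter entries, and 3 genes held the letters, each in a single entry: ATF3, ASNS and CHAC1. Across 35116 promoter entries of the same length, 1100 (3.13%) held them. That share is counted by entry and not by gene. The sequences are given 5′ to 3′ on the gene's strand, with the match in capitals.
ATF3, chr1:212565157-212565406, plus strand: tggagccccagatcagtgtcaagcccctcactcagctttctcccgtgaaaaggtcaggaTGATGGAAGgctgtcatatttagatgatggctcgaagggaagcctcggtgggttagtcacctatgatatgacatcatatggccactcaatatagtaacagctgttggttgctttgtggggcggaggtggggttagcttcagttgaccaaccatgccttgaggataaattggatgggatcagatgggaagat
ASNS, chr7:97872409-97872658, minus strand: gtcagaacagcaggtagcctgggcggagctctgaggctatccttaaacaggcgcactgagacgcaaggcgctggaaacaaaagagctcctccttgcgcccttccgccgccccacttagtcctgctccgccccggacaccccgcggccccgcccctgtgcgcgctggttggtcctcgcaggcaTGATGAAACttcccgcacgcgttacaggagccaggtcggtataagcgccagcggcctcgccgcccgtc
CHAC1, chr15:40953221-40953470, plus strand: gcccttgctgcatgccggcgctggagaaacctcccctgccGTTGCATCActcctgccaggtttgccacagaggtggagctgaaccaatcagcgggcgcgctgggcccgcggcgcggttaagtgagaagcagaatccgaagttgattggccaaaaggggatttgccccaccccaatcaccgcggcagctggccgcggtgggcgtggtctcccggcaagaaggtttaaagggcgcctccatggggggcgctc
The match began 191 bases before the start site in ATF3 (TGATGGAAG), 68 bases before it in ASNS (TGATGAAAC) and 210 bases before it in CHAC1, where it lay on the opposite strand (GTTGCATCA). The cAMP response element TGACGTCA, a site for ATF and CREB factors, was present in 578 (1.65%) of all promoters and among the 10 genes in PPP1R15A, beginning 58 bases before the start. The remaining genes, DDIT3 and DDIT4 among them, held neither set of letters in this window, which says nothing of sites elsewhere.

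After PRIMA-1Met, 7 of the 12 tested probes rose and 2 fell in MM.1S, 7 rose and none fell in U266, and 4 rose and none fell in 8226R5 (limma, Benjamini-Hochberg adjusted p under 0.05 over 19358 probes). Of all tested probes, 71.9% changed in MM.1S (25.9% rose and 46% fell), 26% in U266 (12% and 14%) and 9.09% in 8226R5 (5.02% and 4.08%). The median change of the 12 probes was 0.78 on the log2 scale in MM.1S, 0.38 in U266 and 0.25 in 8226R5. Over all probes the median change was -0.25 in MM.1S, -0.01 in U266 and 0.00437 in 8226R5, so changes in MM.1S are also given relative to that median. At the study's own threshold of 2-fold, 5 of the 12 probes were higher and 1 lower in MM.1S, against 12.1% and 17.8% of all probes. In U266 3 were at least 2-fold higher (0.997% of all probes) and none lower (1.39%), and in 8226R5 none passed that fold in either direction (0.253% and 0.279%). Leaving out 8226R5 control 2 or 8226R5 PRIMA-1Met 1 lowered the count of rises in 8226R5 from 4 to 2.

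**Figure D1:**
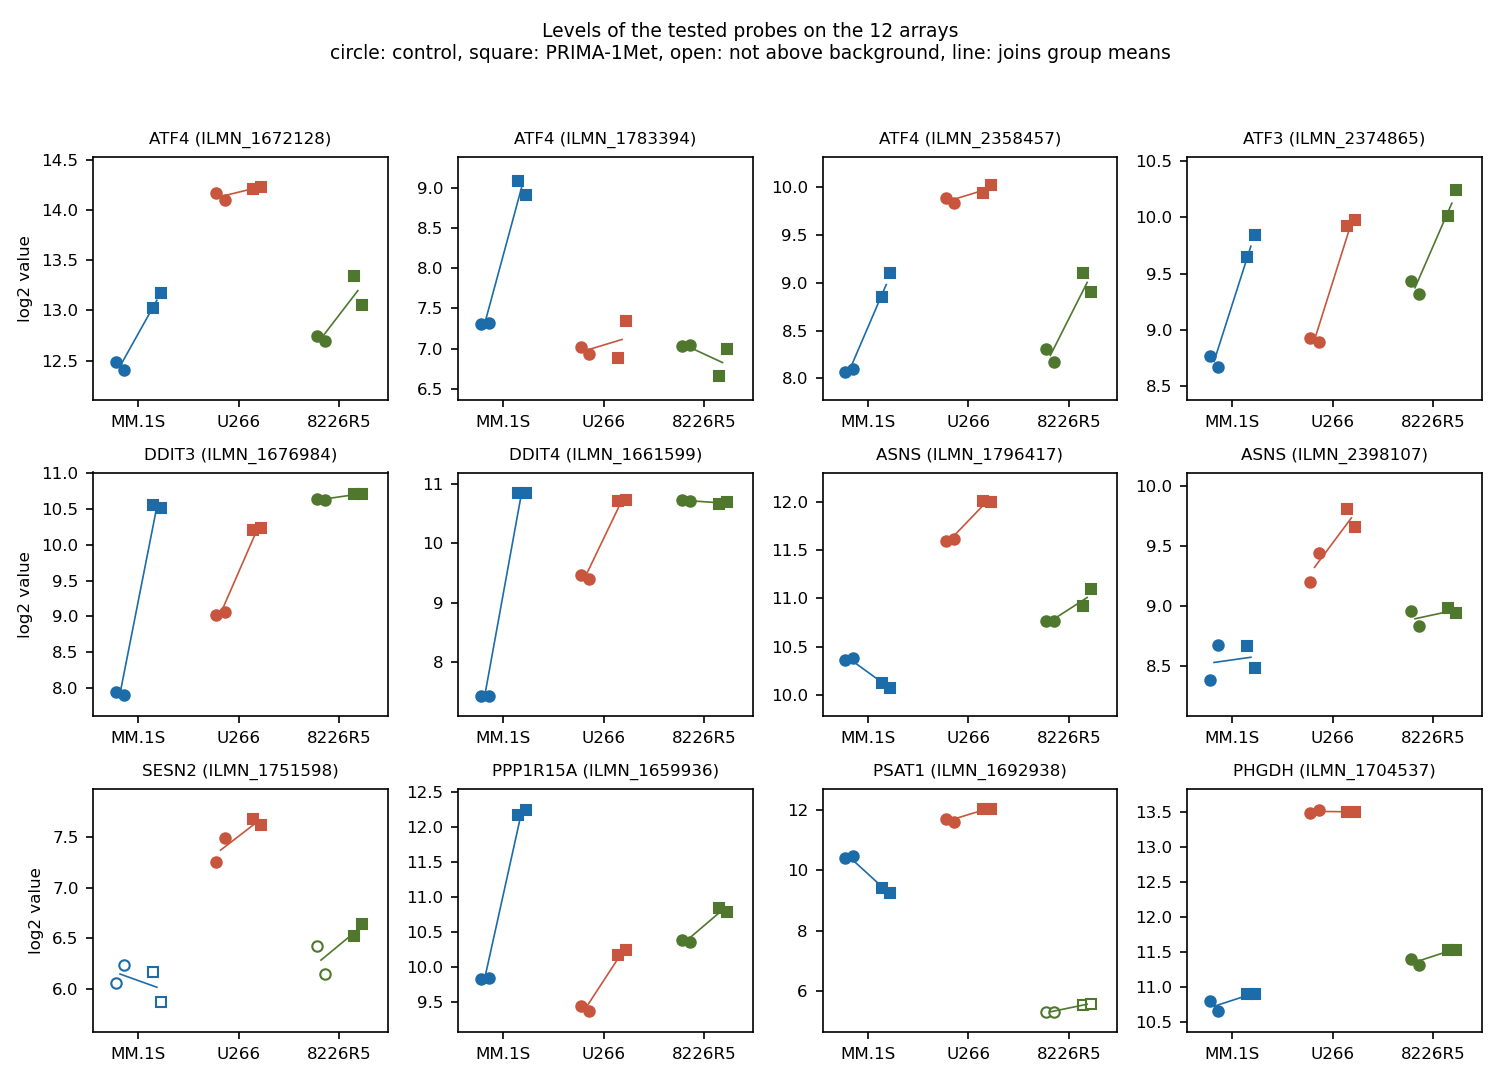
Log2 values of the 12 tested probes on the 12 arrays, 1 panel a probe, with circles for controls, squares for PRIMA-1Met, open symbols for arrays where the probe was not above background, and lines joining group means. DDIT3 and DDIT4 are lowest in the MM.1S controls and reach 10.2 to 10.9 in all 3 treated lines, while PSAT1 is at background in 8226R5.

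Among the transcription factors, ATF4 mRNA was read by 3 probes that disagreed. Its brightest probe, ILMN_1672128, read 12.48 and 12.40 in MM.1S controls and 13.03 and 13.18 after treatment. In U266 it read 14.17 and 14.10 before and 14.22 and 14.24 after, and in 8226R5 12.74 and 12.70 before and 13.34 and 13.05 after. Treated arrays lay above controls in each line, but by little in U266. The rise was 0.66 ± 0.106 (SE) in MM.1S, or 0.91 relative to the median of all probes, with an adjusted p of 0.000328 by limma. In 8226R5 it was 0.48 ± 0.106 (limma adjusted p = 0.025), and this call was lost without 8226R5 control 1 (0.0994), control 2 (0.123) or PRIMA-1Met 1 (0.158). The U266 change was 0.09 with a 95% interval of -0.148 to 0.329 (limma adjusted p = 0.577).

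The second ATF4 probe, ILMN_2358457, gave the same order at lower brightness. It read 8.07 and 8.09 in MM.1S controls and 8.86 and 9.10 after treatment, 9.89 and 9.83 against 9.93 and 10.02 in U266, and 8.31 and 8.17 against 9.10 and 8.90 in 8226R5. It rose by 0.90 ± 0.108 in MM.1S (limma adjusted p = 4.75e-05) and by 0.76 ± 0.108 in 8226R5 (limma adjusted p = 0.00377), with 0.12 and an interval of -0.127 to 0.362 in U266. Both of these ATF4 probes had a negative MM.1S change, -0.23 and -0.57, when signals were scaled to the median of all probes without quantile normalization. On that scale the median of all tested probes was -0.952, so relative to it both changes stayed above 0, at 0.72 and 0.39.

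The remaining ATF4 probe, ILMN_1783394, lay near the detection limit and behaved otherwise. In MM.1S it went from 7.30 and 7.32 to 9.09 and 8.92, a rise of 1.69 ± 0.157 (limma adjusted p = 7.78e-06). In U266 its arrays overlapped, with 7.02 and 6.93 before and 6.88 and 7.34 after. In 8226R5, where the other 2 probes rose, it read 7.04 and 7.04 before and 6.65 and 6.998 after, a change of -0.21 with an interval of -0.566 to 0.14. With signals scaled to the median of all probes without quantile normalization, its MM.1S change was 0.311 and missed the threshold (limma adjusted p = 0.0816). The 3 probes thus rose in MM.1S on the authors' scale and differ in 8226R5. RefSeq lists pseudogenes of ATF4, ASNS and PSAT1, and probe sequences were not used here, so signal shared with those copies is uncertain.

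ATF3, a factor of the same family that is itself switched on by ATF4, rose in all 3 lines. Its detected probe, ILMN_2374865, read 8.77 and 8.67 in MM.1S controls and 9.64 and 9.84 after treatment. In U266 it read 8.93 and 8.89 before and 9.93 and 9.97 after, and in 8226R5 9.43 and 9.32 before and 10.01 and 10.24 after. Both treated arrays were above both controls in every line. It rose by 1.02 ± 0.104 in MM.1S (1.27 relative to all probes, limma adjusted p = 1.49e-05), by 1.04 in U266 (0.000184) and by 0.75 in 8226R5 (0.00335). The MM.1S change was -0.54 with signals scaled to the median of all probes without quantile normalization, or 0.41 relative to the median on that scale. The other 2 ATF3 probes, ILMN_1661109 and ILMN_1791346, were not above background on any array and carry no comparison.

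DDIT3 encodes CHOP, a factor that promotes cell death when stress persists. Its probe, ILMN_1676984, read 7.94 and 7.90 in MM.1S controls and 10.55 and 10.51 after treatment. U266 went from 9.01 and 9.06 to 10.21 and 10.23, whereas 8226R5 read 10.64 and 10.62 before and 10.71 and 10.70 after. The untreated 8226R5 arrays were already at or above the treated arrays of the other lines. DDIT3 rose by 2.61 ± 0.0698 in MM.1S (6.12-fold, 2.86 relative to all probes, limma adjusted p = 2.96e-09) and by 1.18 ± 0.0698 in U266 (2.27-fold, 7.8e-06). In 8226R5 the change was 0.07 with an interval of -0.0828 to 0.232 (limma adjusted p = 0.577).

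DDIT4 (REDD1) restrains the growth kinase complex mTORC1 and is induced by several stresses. It had the largest change of the 12 probes in MM.1S. Its probe, ILMN_1661599, read 7.44 on both MM.1S controls and 10.84 and 10.85 after treatment. In U266 it went from 9.47 and 9.40 to 10.71 and 10.73, and in 8226R5 it read 10.72 and 10.71 before and 10.66 and 10.69 after. The pattern follows that of DDIT3: low in untreated MM.1S, intermediate in U266 and high in 8226R5. The rise was 3.40 ± 0.0701 in MM.1S (10.6-fold, 3.65 relative to all probes, limma adjusted p = 1.17e-09) and 1.29 ± 0.0701 in U266 (2.44-fold, 5.16e-06). In 8226R5 the change was -0.04 with an interval of -0.199 to 0.117.

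SESN2, a sestrin that also restrains mTORC1 and senses leucine, was near background. Its probe, ILMN_1751598, was not detected on any MM.1S array (5.87 to 6.23) nor on the 8226R5 controls (6.42 and 6.14). It was detected on the treated 8226R5 arrays (6.52 and 6.65) and throughout U266, at 7.25 and 7.49 before and 7.68 and 7.62 after. None of the 3 changes passed the test. The U266 change was 0.28 ± 0.139, with an interval of -0.0323 to 0.594 (limma adjusted p = 0.172).

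PPP1R15A encodes GADD34, the subunit that directs phosphatase to eIF2 and so ends the response. Its probe, ILMN_1659936, read 9.83 and 9.85 in MM.1S controls and 12.17 and 12.25 after treatment. U266 went from 9.44 and 9.37 to 10.17 and 10.25, and 8226R5 from 10.38 and 10.35 to 10.84 and 10.79. Treated arrays were above controls in each line, with the widest gap in MM.1S. The rises were 2.37 ± 0.0754 in MM.1S (5.17-fold, 2.62 relative to all probes, limma adjusted p = 8.03e-09), 0.80 in U266 (0.000125) and 0.45 in 8226R5 (0.00777). The 8226R5 call was lost without 8226R5 control 2 (limma adjusted p = 0.0548) or PRIMA-1Met 1 (0.0678).

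The enzymes of amino acid synthesis did not rise with those factors in MM.1S. ASNS makes asparagine from aspartate and is read by 2 probes. The brighter, ILMN_1796417, read 10.36 and 10.38 in MM.1S controls and 10.12 and 10.08 after treatment, 11.59 and 11.62 against 12.007 and 12.001 in U266, and 10.76 and 10.76 against 10.93 and 11.09 in 8226R5. It fell by 0.28 on the log2 scale in MM.1S (limma adjusted p = 0.0104), which is -0.03 relative to the median of all probes, and the call was lost with lines fitted alone (0.0544) and without the detection filter (0.0804). With signals scaled to the median of all probes without quantile normalization, the MM.1S change was -1.87, or -0.92 relative to the median on that scale. It rose by 0.40 ± 0.0789 in U266 (limma adjusted p = 0.00599), a call lost without the detection filter (0.0695) and with signals scaled to the median of all probes (0.0145, 0.906). Its 8226R5 change of 0.25 missed the threshold (0.0887, interval 0.0684 to 0.424).

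The second ASNS probe, ILMN_2398107, disagreed in MM.1S. There it read 8.38 and 8.68 before and 8.66 and 8.48 after, with arrays that overlapped and a change of 0.04 (interval -0.246 to 0.332). In U266 it went from 9.20 and 9.44 to 9.81 and 9.65, a rise of 0.41 ± 0.128 (limma adjusted p = 0.0428). That call was lost with any 1 of the 4 U266 or 4 8226R5 arrays left out, with adjusted p between 0.0524 and 0.246, and with replicate number as a block (0.0596). In 8226R5 its arrays overlapped, at 8.96 and 8.83 before and 8.98 and 8.94 after.

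PSAT1 and PHGDH make serine from an intermediate of glycolysis. The detected PSAT1 probe, ILMN_1692938, read 10.42 and 10.48 in MM.1S controls and 9.41 and 9.25 after treatment, and 11.72 and 11.61 against 12.04 and 12.02 in U266. In 8226R5 it was not above background on any array (5.32 to 5.60), so no fold is given there. PSAT1 fell by 1.12 ± 0.083 in MM.1S (2.17-fold, limma adjusted p = 1.96e-06), or -0.87 relative to all probes, and rose by 0.37 in U266 (limma adjusted p = 0.0107, and 0.0794 without U266 control 2). The second PSAT1 probe, ILMN_1712563, was at background on all arrays.

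PHGDH, the first enzyme of that route, was read by ILMN_1704537 at 10.80 and 10.66 in MM.1S controls and 10.90 on both treated arrays. It read 13.48 and 13.53 before and 13.50 on both arrays after treatment in U266, and 11.40 and 11.32 before and 11.53 on both arrays after in 8226R5. No change passed the test, with 0.17 ± 0.0782 in MM.1S (0.42 relative to all probes, limma adjusted p = 0.0762), -0.01 in U266 (interval -0.183 to 0.17) and 0.17 in 8226R5. The MM.1S change depended on the setting: it passed without MM.1S control 1 (limma adjusted p = 0.0447) and with values centred on probes detected on all arrays (0.232, 0.0229, or 0.30, 0.006, without quantile normalization), and was -1.34 with signals scaled to the median of all probes. CHAC1, an enzyme that degrades glutathione and a known target of ATF4, ATF3 and CHOP, was detected on 1 of 12 arrays, U266 control 2 at 6.41, and its values ran from 4.62 to 6.41. It was not tested.

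**Figure D2:**
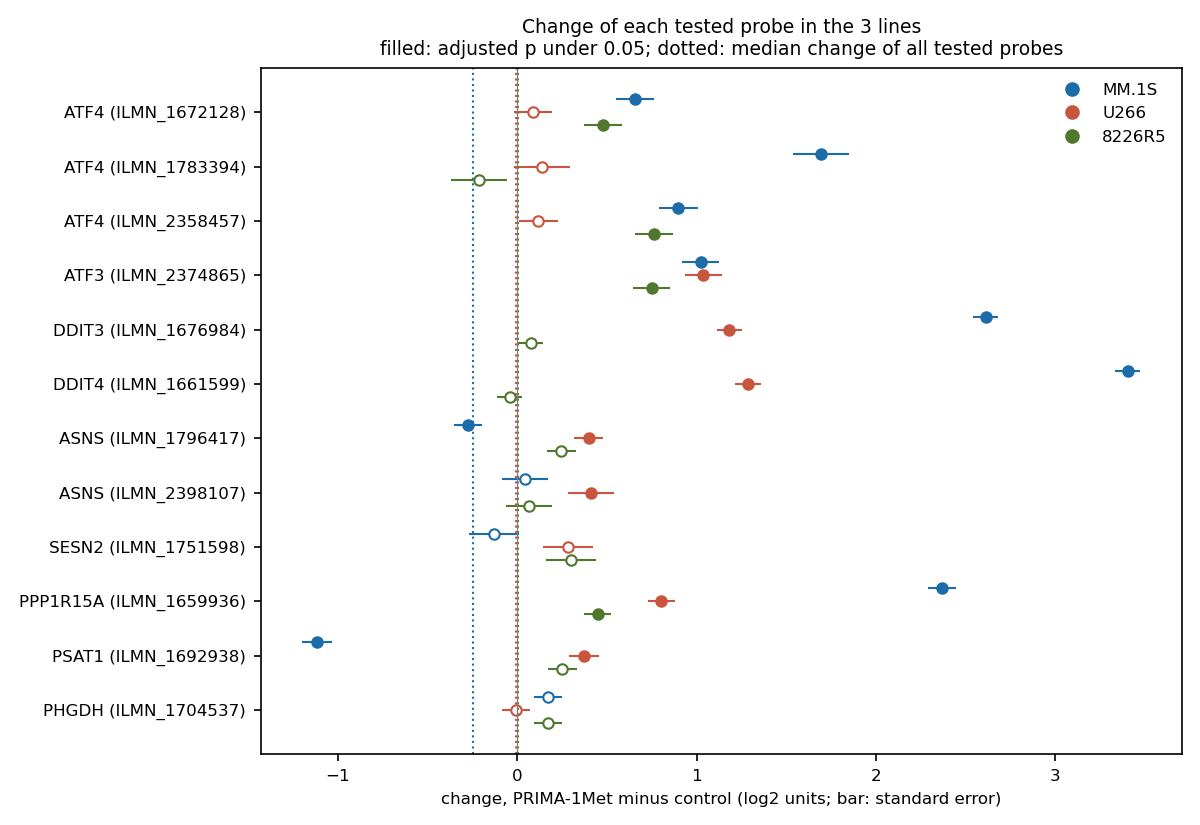
Change after PRIMA-1Met minus control (log2 units, bar: standard error) for the 12 tested probes, blue for MM.1S, red for U266 and green for 8226R5, filled where the adjusted p was under 0.05, with dotted lines at the median change of all tested probes. DDIT4, DDIT3 and PPP1R15A lie far to the right in MM.1S (3.40, 2.61 and 2.37), PSAT1 lies to the left (-1.12), and ATF3 is filled in all 3 lines.

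The size of the response differed between the lines for 8 of the 12 probes (limma moderated F test, adjusted p under 0.05), which is close to the share among all probes, 68.1%. The difference was largest for DDIT4, whose largest and smallest change were 3.45 apart (limma adjusted p = 8.58e-08), followed by DDIT3 at 2.54 (2.41e-07), PPP1R15A at 1.92 (1.31e-06) and PSAT1 at 1.49 (8.96e-06). The F test did not pass for ATF3 (limma adjusted p = 0.18), the second ASNS probe (0.163), SESN2 (0.124) or PHGDH (0.278). For the brightest ATF4 probe it passed at 0.0192, and not without MM.1S control 2 (0.053), U266 control 1 (0.0703) or U266 PRIMA-1Met 1 (0.0555).

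U266 and 8226R5 received the same dose. Between them 3 probes rose more in U266 and 1 rose more in 8226R5, against 8.49% and 10.8% of all probes (19.3% in either direction). DDIT4 rose 1.33 ± 0.0991 more in U266 (limma adjusted p = 6.09e-05) and DDIT3 1.11 ± 0.0987 more (0.000155). PPP1R15A rose 0.36 ± 0.107 more in U266 (limma adjusted p = 0.0455), a call lost with any 1 of the 4 U266 arrays, the 4 8226R5 arrays or the 2 MM.1S controls left out (0.06 to 0.135) and under the replicate block (0.065). ATF4 went the other way on ILMN_2358457, with a difference of -0.64 ± 0.153 (limma adjusted p = 0.0187). Its adjusted p was 0.0504 to 0.071 without U266 control 1 or 2, U266 PRIMA-1Met 1, 8226R5 control 2 or 8226R5 PRIMA-1Met 1. On the brightest ATF4 probe the difference was -0.39 (interval -0.727 to -0.0509, limma adjusted p = 0.104, and 0.0419 without 8226R5 PRIMA-1Met 2).

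In untreated cells the lines stood far apart. Of the 12 probes, 1 was higher and 9 lower in MM.1S than in U266, 1 higher and 8 lower in MM.1S than in 8226R5, and 7 higher and 4 lower in U266 than in 8226R5. Across all probes 57.1%, 60.5% and 63.5% differed in these comparisons (29.2% higher and 27.9% lower, 30.9% and 29.6%, and 32.1% and 31.4%). The same control arrays enter the changes described above, so level and change are given side by side and not related. The level of DDIT3 increased in the order MM.1S, U266, 8226R5. It was 1.12 lower in MM.1S than in U266 and 1.60 lower in U266 than in 8226R5, both beyond the spread (limma adjusted p = 7.92e-07 and 4.78e-08). DDIT4 had the same order, with steps of 2.00 and 1.28 (1.63e-08 and 2.12e-07). PPP1R15A ran from U266 through MM.1S to 8226R5, with steps of 0.43 and 0.53 (0.000788 and 0.000192), and ATF3 was higher in 8226R5 than in MM.1S and U266, which differed by 0.19 (limma adjusted p = 0.147).

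The amino acid genes and ATF4 were highest in untreated U266. PHGDH was 2.78 ± 0.0782 lower in MM.1S than in U266 (limma adjusted p = 4.12e-09) and 0.63 lower in MM.1S than in 8226R5 (7.51e-05). PSAT1 was at least 14.4-fold higher in MM.1S and at least 33.4-fold higher in U266 than in 8226R5, where it was at background (limma adjusted p = 1.62e-10 and 5.22e-11). For such bounds an undetected array takes the value of the dimmest detected probe on it, or its own where that is higher. SESN2 was at least 1.86-fold higher in U266 than in MM.1S and at least 1.71-fold higher than in 8226R5. ATF4 on its brightest probe was 1.69 ± 0.106 lower in MM.1S than in U266 (limma adjusted p = 7.99e-07). MM.1S and 8226R5 differed there by 0.28 (limma adjusted p = 0.0463), a difference that did not pass without any 1 of the 4 control arrays of these lines (0.0821 to 0.183) or the 4 U266 arrays (0.0609 to 0.0629). On the dim ATF4 probe ILMN_1783394 no pair of untreated lines differed past the threshold.

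On the authors' quantile normalized scale, treatment left the lines closer for some of these genes and farther apart for others. The range of the 3 group means was 3.28 for DDIT4 in controls and 0.166 after PRIMA-1Met, and 2.71 and 0.489 for DDIT3. For PPP1R15A the range was 0.962 before and 2.00 after, and over all probes its median was 0.802 before and 1.21 after. Before normalization the DDIT4 signals of the treated arrays were 682 and 699 in MM.1S and 1480 and 1428 in U266. In treated 8226R5 they were 2215 and 2262. These signals are not adjusted for the dimmer treated MM.1S arrays, and the ranges were not tested without quantile normalization.

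Across the 12 arrays, the gene whose log2 values most resembled those of DDIT3 was DDIT4 (Pearson r = 0.973), among 11305 other genes each read by its brightest detected probe. WHR1 (0.970), STARD10 (0.966), SLX4IP (0.956) and RPP21 (0.953) followed. For ATF4 the nearest were GTF2F1 (0.987), EIF3G (0.974), SPTBN5 (0.974), VAMP5 (0.968) and HSPA1L (0.967). These are descriptions: the 12 points are 6 pairs of duplicates that share line, dose and normalization. DDIT3 and ATF4 themselves had an r of 0.154.

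Other genes of the pathway were counted by lists, 1 probe a gene, and each count is to be read beside the shares over all probes: 25.9% rose and 46% fell in MM.1S, 12% and 14% in U266, and 5.02% and 4.08% in 8226R5. Genes named below as at background carry no fold. Their changes in MM.1S are not relative to the median of all probes (-0.25). The alternative fits were followed for the member probes only. Whether the changes of these other genes hold without quantile normalization was not tested. Among 12 eIF2 kinases, eIF2 and eIF2B subunits and related genes, 5 rose and 7 fell in MM.1S, 2 rose and 2 fell in U266, and none passed in 8226R5. EIF2AK4 (GCN2), the kinase that senses uncharged tRNA, rose by 3.48 ± 0.0881 in MM.1S (11.2-fold, limma adjusted p = 2.34e-09), from a mean of 8.77 to 12.25, and by 0.44 in U266. EIF2AK3 (PERK), the kinase of the endoplasmic reticulum, fell by 1.68 in MM.1S (at least 2.36-fold) and by 0.75 in U266. EIF2AK1 (HRI), the haem-regulated kinase, fell by 1.35 in MM.1S and by 0.31 in U266, but its second probe gave -1.62 and 0.10 in these lines. PPP1R15B, the constitutive counterpart of PPP1R15A, rose by 0.48 in MM.1S and by 0.42 in U266.

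Of 7 tested partner factors, 2 rose and 4 fell in MM.1S, 2 rose and 3 fell in U266 and none passed in 8226R5. JDP2, counted among the MM.1S rises, was at background in both groups. CEBPB, a dimer partner of ATF4, rose by 1.43 ± 0.122 in MM.1S (limma adjusted p = 4.54e-06). TRIB3, a CHOP-induced inhibitor of the response, rose by 0.50 in U266 and fell by 0.63 in MM.1S. XBP1, a factor of the unfolded protein response, fell by 1.58 in MM.1S and by 0.85 in U266, and a second probe fell in both lines as well (-1.65 and -1.21). Of 9 tested targets of CHOP and of stress in the endoplasmic reticulum, 2 rose and 5 fell in MM.1S, 3 rose and 1 fell in U266 and none passed in 8226R5. Of the MM.1S falls, VLDLR was at background in both groups and VEGFA in the treated group, with no bound. BBC3 (PUMA), a promoter of apoptosis, rose by 1.06 ± 0.142 in MM.1S, while ERO1A, an oxidase of the endoplasmic reticulum, fell by 1.42 (at least 1.96-fold). VEGFA and STC2 rose by 0.65 and 0.63 in U266. The 3 probes of BCL2L11 (BIM) disagreed in MM.1S, with 0.25, 0.155 and -0.82.

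Of 10 tested enzymes of amino acid and one-carbon metabolism, 0 rose and 7 fell in MM.1S, 1 rose and 2 fell in U266, and 1 rose and 0 fell in 8226R5. The falls in MM.1S include BCAT1, at background in both groups, and PSPH, at background after treatment with no bound on the fold. ALDH18A1, of proline synthesis, fell by 1.92 ± 0.14 in MM.1S, where only 1 treated array detected it. PSPH, which follows PSAT1 in serine synthesis, fell by 0.49 in U266, but its second probe gave 0.05 there. CTH, of cysteine synthesis, rose by 0.59 in U266, from 6.58 to 7.17, near the detection limit. The 1 probe that passed in 8226R5, for BCAT1, was not above background in either group there. Of 7 tested amino acid transporters, 1 rose and 5 fell in MM.1S, 2 rose and 1 fell in U266 and 1 rose in 8226R5. SLC6A9, counted among the MM.1S falls, was at background in both groups. SLC3A2, the chain shared by several transporters, rose by 1.11, 0.67 and 0.41 in MM.1S, U266 and 8226R5, but its second probe gave 0.01, -0.37 and 1.11. SLC7A1, an importer of arginine and lysine, fell by 1.66 in MM.1S, and SLC38A2, an importer of small neutral amino acids, rose by 0.75 in U266.

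Among 4 tested paralogs and mTORC1 regulators, 1 rose and 3 fell in MM.1S, 1 rose and 1 fell in U266 and 1 fell in 8226R5. SESN1, a paralog of SESN2, fell by 0.97 in MM.1S and by 0.54 in 8226R5. CHAC2, a paralog of CHAC1, fell by 1.95 in MM.1S (at least 1.39-fold). EIF4EBP1, a brake on translation controlled by mTORC1, rose by 0.72 in MM.1S. The medians of the 6 lists in MM.1S ran from -0.77 to -0.50, below the median of all probes (-0.25), and in U266 from -0.05 to 0.21.

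**Figure D3:**
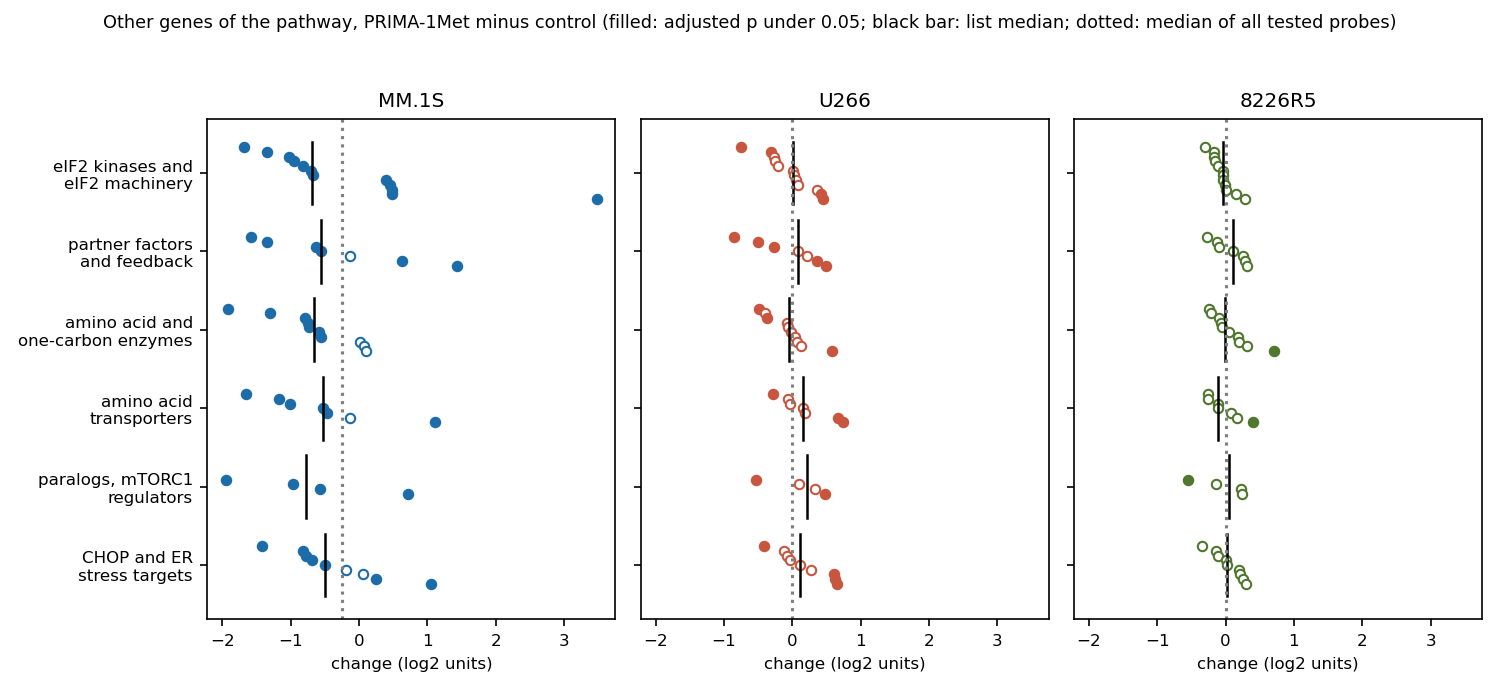
Change after PRIMA-1Met minus control (log2 units) of each tested gene of the 6 pathway lists in MM.1S, U266 and 8226R5, filled where the adjusted p was under 0.05, with a black bar at the list's median and a dotted line at the median of all tested probes. EIF2AK4 stands at 3.48 in MM.1S, most other genes there lie left of 0, and in 8226R5 only 3 genes are filled.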

How the data were processed

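The deposited matrix holds log2 values that the authors quantile normalized over the 12 arrays. A second deposited table gives, per the file headers, an intensity for each probe and array and a detection p-value against negative controls. The submitters' processing notes name BeadStudio, lumi and limma without saying which did what (genome build of the probes: not given in the sources used here). The log2 values of the authors matched the ranked means of log2(signal - array minimum + 1) within 0.0022 beyond the 10 lowest ranks, so low signals are compressed. On 9 arrays the intensities were displaced by 1 row from row 22924 (24398 probes) and were realigned: the Spearman correlation with the log2 values went from 0.511 to 0.529 before to 1 after.

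Detection took a p under 0.01 on at least 2 arrays, which left 19358 probes. A limma 3.58.1 model in R 4.3.3 gave each of the 6 groups a mean, on 12 arrays with 6 residual degrees of freedom, followed by eBayes, two-sided tests and Benjamini-Hochberg adjustment over all tested probes at 0.05. Each ± is a standard error from that fit, and intervals cover 95%. The number of arrays limits the precision. In simulated data with known changes the model was tested before use. Of the probes, 30112 had 1 gene symbol, 8 several and 17202 none, from a platform annotation whose symbols needed 0 updates. All columns were matched to samples by title, with 0 left over.

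The members, the pathway lists and the tests were chosen with earlier results of these data known. Pathway genes were drawn by rule: up to 2 of the largest rises and falls past the threshold in each line and list, by the brightest detected probe of a gene. Not all of these are described above. Left out were SLC7A5 (falls in MM.1S and U266), ATF6 and DNAJB9 (falls in MM.1S), and CEBPG and DDIT4L (rises in U266). The falls of ATF5, CBS, BCL2L11 and CHAC2 in U266 were left out as well. Alternatives were other background offsets (neqc at 16 and 50), scalings, filters, 1 probe a gene, lines fitted alone, the replicate number as a block and leaving out each array. Scalings of the signals without quantile normalization were added after the data were seen, since every array already had a median of 5.92.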

Additional observations from a re-analysis of the deposited data

Results flagged for a closer look

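The change after PRIMA-1Met differed between the 3 lines, by a limma moderated F test of the difference itself, for 8 of the 12 tested probes, against 68.1% of all probes. The largest and smallest change were 3.45 log2 units apart for DDIT4, 2.54 for DDIT3, 1.92 for PPP1R15A, 1.49 for PSAT1 and 0.67 for the brighter ASNS probe. For the ATF4 probes ILMN_1672128, ILMN_1783394 and ILMN_2358457 they were 0.57, 1.91 and 0.78 apart. The largest rise was in MM.1S for DDIT4, DDIT3 and PPP1R15A, whereas ASNS and PSAT1 were lowest there. ATF4 had its largest rise in MM.1S on the authors' scale, but with signals scaled to the median of all probes ILMN_2358457 was -0.568 in MM.1S and 1.1 in 8226R5, or 0.385 and 0.872 relative to the median of all probes.

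Between U266 and 8226R5, treated at the same dose, the change in U266 minus that in 8226R5 was 1.33 for DDIT4, 1.11 for DDIT3, 0.36 for PPP1R15A and -0.64 for ATF4 (ILMN_2358457), each past the threshold in the test of the difference. The differences of PPP1R15A and ATF4 were less stable. Both were lost in several of the alternative fits, and that of PPP1R15A was -0.488 with signals scaled to the median of all probes.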

How the results depend on the processing

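The rises of DDIT3, DDIT4 and PPP1R15A in MM.1S and U266, of ATF3 in U266 and 8226R5 and of ATF4 (ILMN_2358457) in 8226R5, and the fall of PSAT1 in MM.1S, kept direction and call in each of the alternatives run, 22 in number (21 for ATF4, whose probe drops out with 1 probe a gene). In MM.1S their changes were 1.14 to 2.80 for DDIT3, 2.00 to 3.70 for DDIT4, 1.05 to 2.69 for PPP1R15A and -2.67 to -1.03 for PSAT1.

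Reversals are listed where the main or other fit had a call. These all came from scaling, and the cause was not tested. Without quantile normalization, scaling to the median of all probes made 11.7% of called probes rises in MM.1S (main 36.1%), 6.71% in U266 (46.2%) and 92.8% in 8226R5 (55.2%), and scaling to probes detected on all arrays made these 73.8%, 71.8% and 28.9%. The median change of all probes in MM.1S was -0.952 and 0.686. With the first scaling 11401 probes changed in U266, 7298 in 8226R5 and 12025 differed between these responses. Among the 12 probes 3 rose and 6 fell in MM.1S, 4 rose and 1 fell in U266, and 9 rose in 8226R5. Of all 19357 probes tested on that scale, 1796 rose and 13557 fell in MM.1S. In U266 765 rose and 10636 fell, and in 8226R5 6771 rose and 527 fell. Changes turned for ASNS (ILMN_2398107: -1.38 in MM.1S, -0.126 in U266), ATF3 (-0.544 in MM.1S), ATF4 (ILMN_1672128: -0.229 in MM.1S; ILMN_2358457: -0.568 in MM.1S, -0.378 in U266), DDIT4 (0.27 in 8226R5), PHGDH (-1.34 in MM.1S) and PSAT1 (-0.00666 in U266), while DDIT3 passed in 8226R5 (0.379, adjusted p = 0.00639). U266 minus 8226R5 turned for ASNS (-0.575), ATF3 (-0.615) and PPP1R15A (-0.488), and for DDIT3 it missed the threshold (0.268, adjusted p = 0.0723). With the second scaling 8428 probes changed in U266, 3876 in 8226R5 and 7928 differed, while PHGDH in U266 (0.321) and SESN2 in MM.1S (1.47) turned. Relative to the median of all probes the 2 scalings give the same changes by construction, so they make 1 check. In it the called changes after treatment kept their direction. Changes without a call turned in MM.1S for ASNS (ILMN_2398107: 0.293 in the main fit, -0.432 without quantile normalization) and PHGDH (0.42 and -0.386). ATF4 (ILMN_2358457) in U266 and PSAT1 and DDIT4 in 8226R5, also without a call, turned at small values.

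With 1 probe a gene, fewer tests gave 8481 changed in MM.1S, 3188 in U266, 2281 differing between U266 and 8226R5, 8079 by the F test, and 7164, 7578 and 7874 between untreated MM.1S and U266, MM.1S and 8226R5, and U266 and 8226R5. Without the detection filter 2426 changed in U266, 325 in 8226R5 and 1327 differed, and of the 12 probes and the 4 otherwise left out, 4 rose in U266, 2 in 8226R5 and 1 fell in MM.1S. It ended the calls of ATF4 (ILMN_1672128, adjusted p = 0.164) and PPP1R15A (0.105) in 8226R5, of PSAT1 in U266 (0.0972) and of the ATF4 (ILMN_2358457) difference between U266 and 8226R5 (0.11). With lines fitted alone, 1 fell in MM.1S, and ATF4 (ILMN_1672128) missed the threshold in 8226R5 (0.0554). Leaving out 1 array gave 2746 to 6514 changed in U266, 502 to 2749 in 8226R5, 2251 to 5059 differing, and 2 to 4 rises among the 12 probes in 8226R5. Counts moved by over 1.5 times in U266 without U266 control 1, control 2 or PRIMA-1Met 2, in 8226R5 without any 1 of its own arrays or of the MM.1S PRIMA-1Met arrays, and for their difference without U266 control 1 or 2, 8226R5 control 1 or either 8226R5 PRIMA-1Met array.

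Replicate numbers did not pair the samples: deviations of same-numbered arrays correlated at 0.0232, 0.00382 and 0.0125. With the replicate block 13887, 4801 and 1503 probes changed in MM.1S, U266 and 8226R5, and among the 12 probes it ended the rise of ASNS (ILMN_2398107) in U266, the U266 minus 8226R5 difference of PPP1R15A and the untreated MM.1S minus 8226R5 difference of ATF4 (ILMN_1672128, adjusted p = 0.0536). No slides are named, so no slide block was run. Centring the quantile normalized values on all probes changed nothing, by construction. Probes near background give only bounds.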
